A study of Mus musculus with 3 samples.

Results

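Total RNA from 3 biological repeats of R1, a line of embryonic stem (ES) cells from mouse strain 129, was read on the Affymetrix Mouse Gene 1.0 ST array, whose probes lie along the exons of each transcript. The members described here are the ciliary transport and axonemal dynein genes, chosen by symbol from the platform annotation: intraflagellar transport genes (Ift), Bardet-Biedl genes (Bbs), axonemal dynein chains (Dnah, Dnaic, Dnal1, Dnali1), dynein assembly factors (Dnaaf), radial spoke genes (Rsph), Rfx transcription factors, tectonics (Tctn), Nphp4 and Mks1. They number 65 of the 19057 genes that a probe set with a single symbol reads. The 3 arrays form 1 group, the R1 line with no treatment, genotype or time label, so no 2 conditions can be compared, and culture conditions are not in the labels. The members' values therefore answer which of these genes gave signal in R1 cells and how evenly they did so over the repeats. All values are log2 probe set intensities. Background was taken from 1182 genes for olfactory and vomeronasal receptors: a gene counts as above it on an array if its value passes their 95th percentile there, which lay at 4.72, 4.60 and 4.60 in repeats 1, 2 and 3. A gene below that limit was not shown to be silent, and a level is not ranked against that of another gene, because different probes bind with different strength.

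Cilia are microtubule projections that grow from a basal body. Primary cilia, which many mammalian cell types can form, do not beat and carry receptors such as those of the hedgehog pathway. Motile cilia and sperm tails also hold rows of axonemal dynein arms and radial spokes that drive beating. Intraflagellar transport (IFT) trains carry cargo in both kinds: complex B rides with kinesin to the tip, and complex A with a cytoplasmic dynein back to the base. The BBSome, a coat of BBS proteins, moves membrane proteins along the trains, and the transition zone at the base gates entry. RFX factors bind a DNA element called the X-box in promoters of many of these genes.

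The transport machinery of the cilium was read above background in R1 cells, while most axonemal dynein chains, taken as the mean of their probe sets, were not. All 14 IFT genes, 7 of 8 BBS genes and all 5 transition zone genes exceeded the cutoff on all 3 arrays, together 26 of 27. Of 19 dynein chain genes 3 did so, and of the 15 heavy chains among them 2 did, Dnah8 and Dnah2. Dynein assembly factors (5 of 6), radial spoke genes (3 of 5) and Rfx factors (6 of 8) made up the rest. Over all families 43 of 65 members (66.2%) passed the cutoff in every repeat, 45 in at least 2 and 18 in none, which leaves 4 that passed it in 1 or 2 repeats. Among the 17875 genes outside the receptor families 71.6% passed in every repeat, 73.8% in at least 2, 24.3% in none and 4.16% in 1 or 2, so the members as a whole lay near the background share and the families differed among themselves. The median member had a mean log2 intensity of 5.60, against 5.88 over the genes outside the receptor families. No set test was run on these shares, since the members were chosen with earlier results of these data known.

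**Figure D1:**
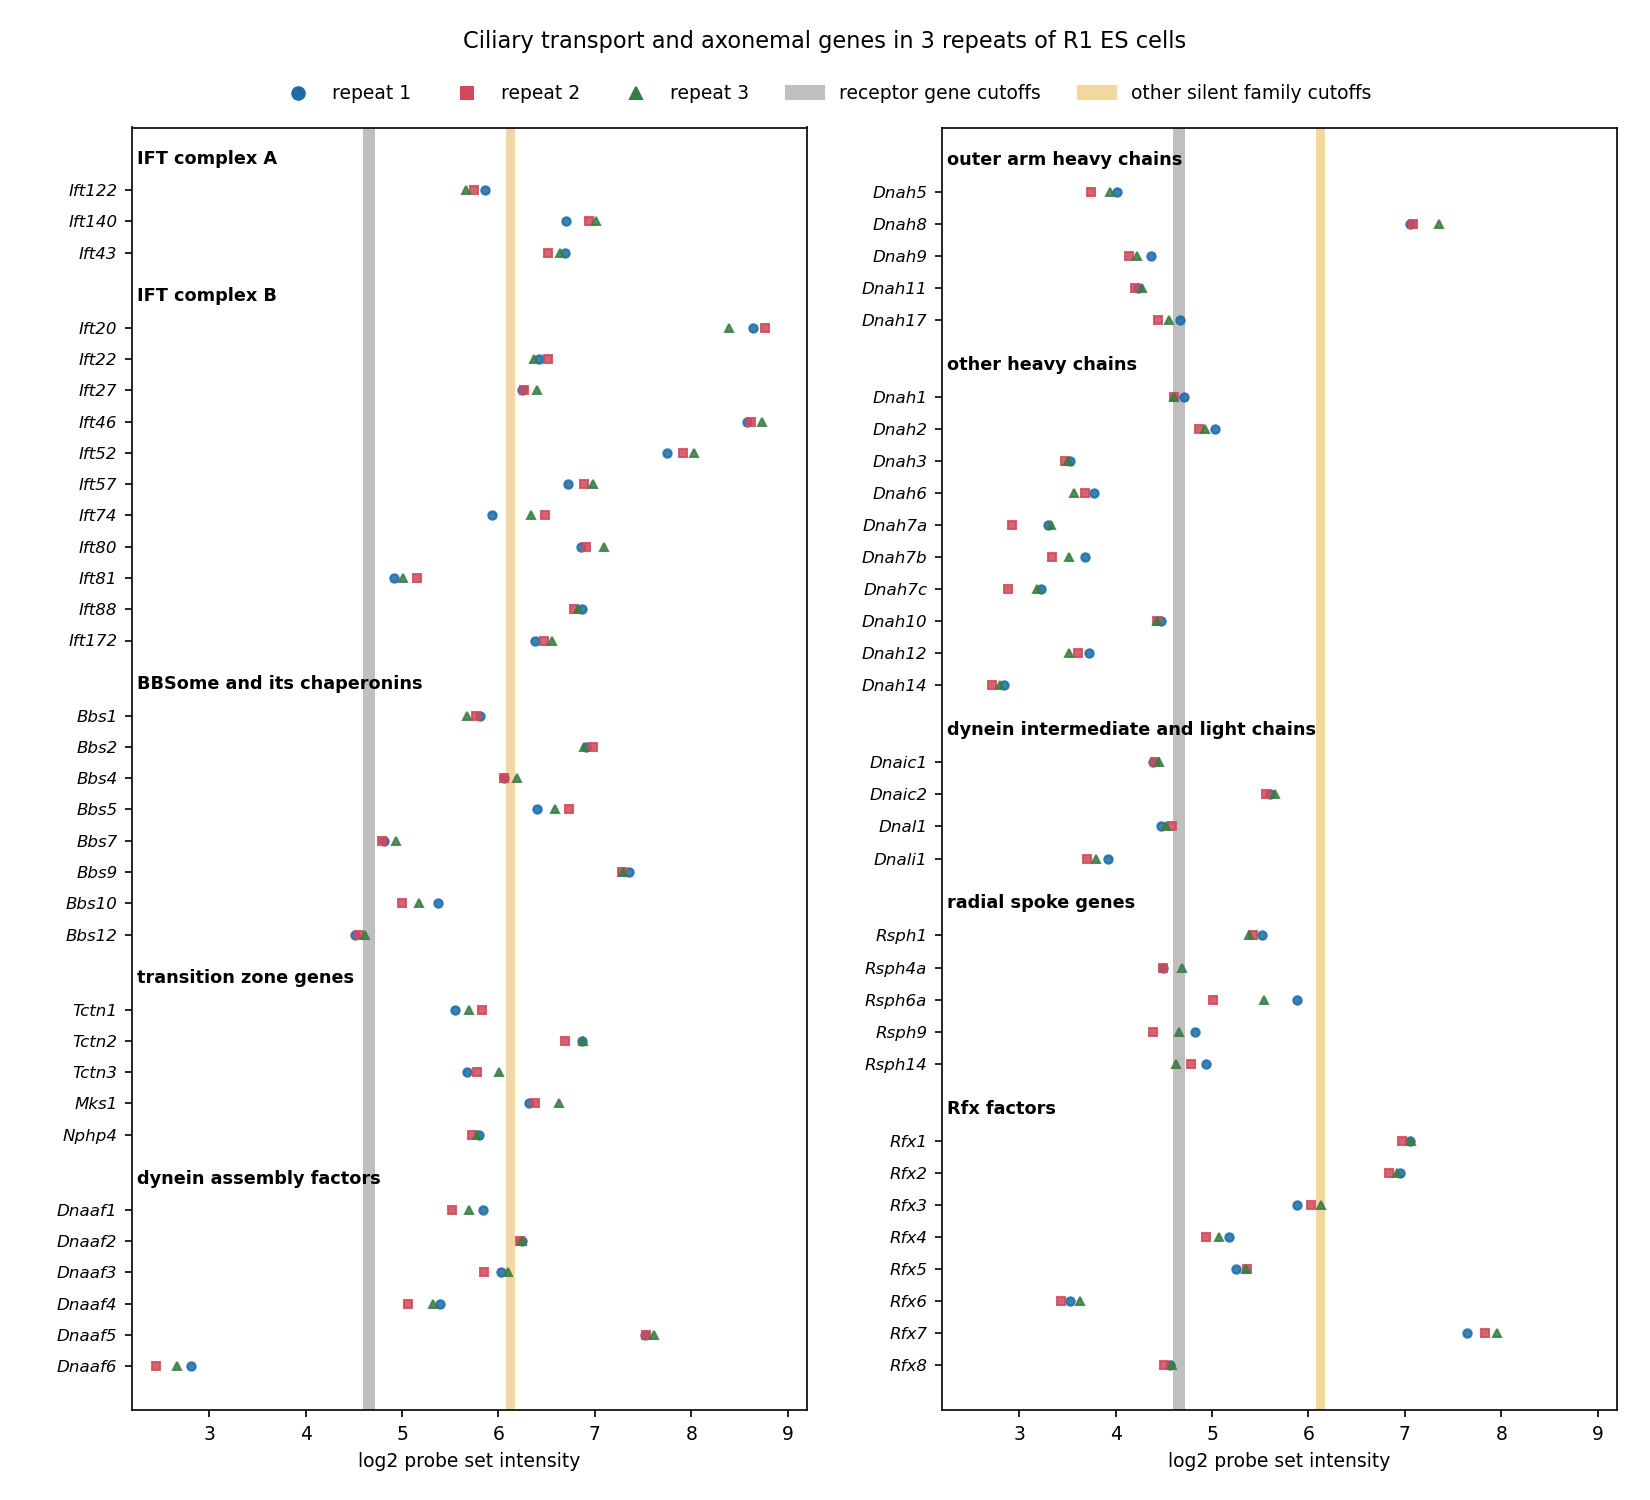
Log2 probe set intensity (horizontal axis) of all 65 members in repeats 1, 2 and 3, grouped by family. The grey band spans the cutoffs set by receptor genes on the 3 arrays and the tan band the higher cutoffs set by other silent families. IFT genes lie to the right of the grey band and all heavy chains but Dnah8 and Dnah2 lie on it or to its left.

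Both higher cutoffs left IFT genes above the share of all genes. BBS and transition zone genes stayed above it only at the 99th percentile of the receptor genes. At the 99th percentile of the receptor genes (log2 5.48, 5.39 and 5.52), 33 members stayed above on all 3 arrays, where 55.1% of genes outside the receptor families did. IFT genes stood there at 13 of 14, BBS genes at 5 of 8 and transition zone genes at 5 of 5. With 125 genes of other silent families (keratin-associated, defensin, taste receptor and casein genes) as background, the cutoff rose to 6.12, 6.17 and 6.08, and 22 members exceeded it, where 43.8% of genes did. These 22 were 11 IFT genes, 3 BBS genes (Bbs2, Bbs5 and Bbs9), Tctn2, Mks1, Dnaaf2, Dnaaf5, Rfx1, Rfx2, Rfx7 and, among 15 heavy chains, Dnah8. At that cutoff IFT genes stood at 11 of 14, while BBS genes (3 of 8), transition zone genes (2 of 5), Rfx factors (3 of 8) and assembly factors (2 of 6) lay below the share of all genes. No radial spoke gene passed either higher limit on all 3 arrays, against 3 at the lower one. The other 21 members called above background lay between the limits on at least 1 array, so their signal is nearer to background.

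**Figure D2:**
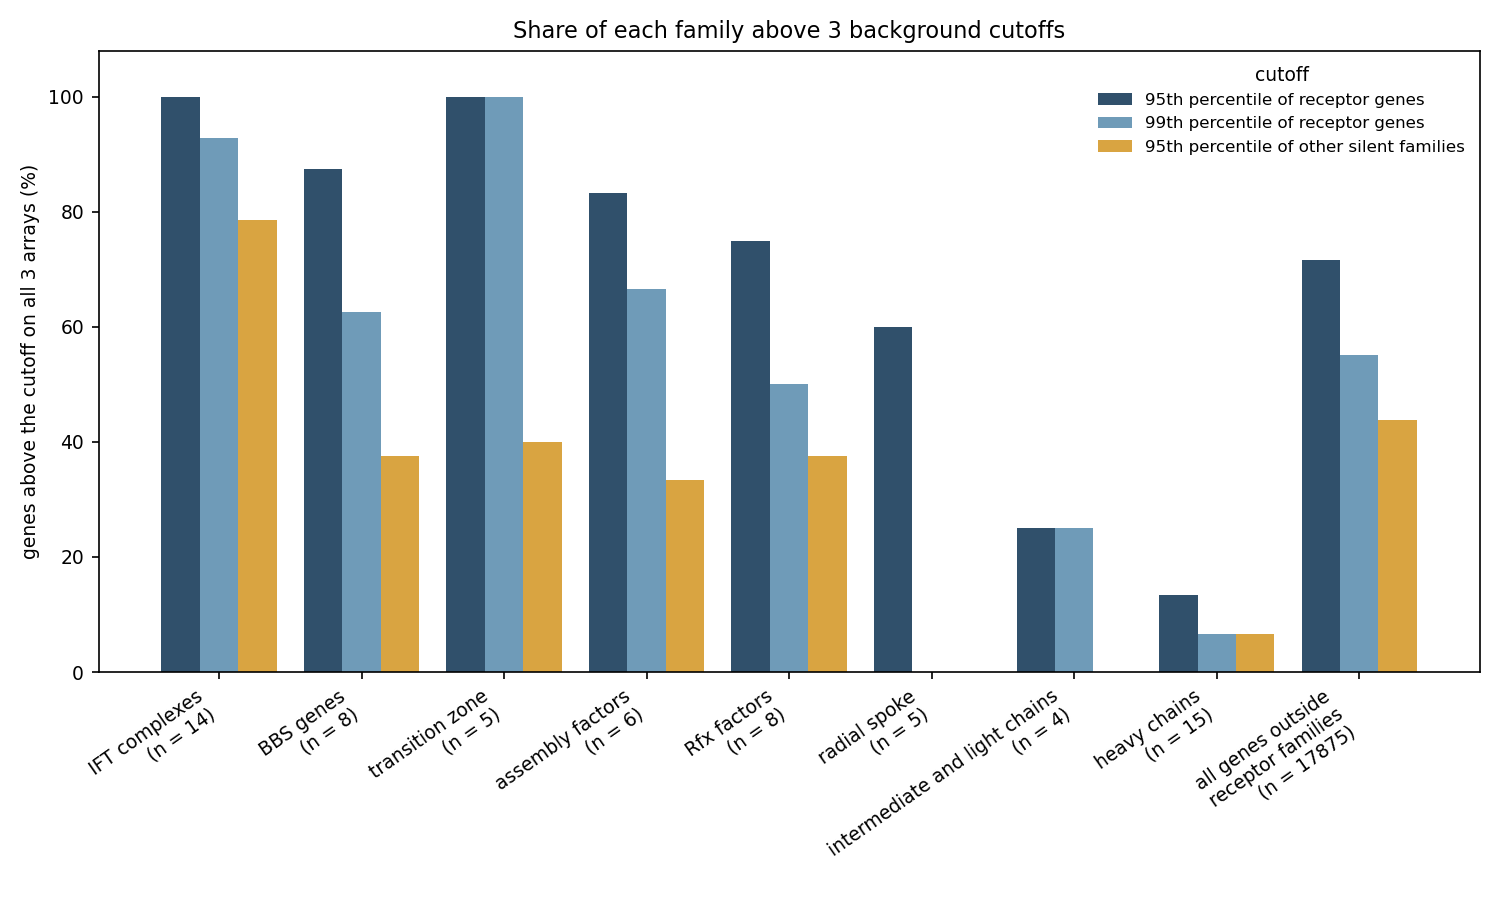
Share of genes (%) above each of 3 cutoffs on all 3 arrays, by family, with all genes outside the receptor families at the right. Bars for IFT genes stand at 100, 92.9 and 78.6% and bars for heavy chains at 13.3, 6.67 and 6.67%.

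Rfx factors are winged-helix proteins, and Rfx1 to Rfx4 are among the members of the family tied to ciliary genes in vertebrates. Rfx1 read 7.05, 6.97 and 7.07 in repeats 1, 2 and 3. Rfx2 read 6.94, 6.84 and 6.92. Rfx3 read 5.89, 6.02 and 6.13. All 3 exceeded the receptor cutoff by more than 1 log2 unit on each array, and Rfx3 exceeded the higher silent family cutoff in repeat 3 alone. Rfx4, known for its role in brain development, read 5.18, 4.94 and 5.07, above the receptor cutoff on each array and below its 99th percentile. Rfx5, which binds promoters of MHC class II genes, read 5.25, 5.37 and 5.35 and likewise stayed below the 99th percentile. Rfx7 read 7.65, 7.83 and 7.95 and was well above every cutoff. Rfx6, a factor of pancreatic islet development, read 3.53, 3.43 and 3.63, and Rfx8 read 4.56, 4.50 and 4.59. These 2 were below background in all repeats.

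The X-box is printed here because its binding factors and its target genes are both among the members. RefSeq promoter windows (GRCm38.p6, 250 bases before to 50 after an annotated start) were listed for 58 of the 65 members by symbol, in 62 windows. The X-box palindrome, a pattern that reads the same on both strands, was found in 4 of these windows (6.45%), against 148 of 32851 windows of all genes (0.451%). These windows belong to Bbs7, Mks1, Tctn1 and Dnaaf6. Each stretch of 30 bases is given 5′ to 3′ along the gene, with the matched letters in capitals:
Bbs7 (chr3:36613489-36613518, minus strand): gcgccccgGTTGCCTTGGAAACcggccagc
Mks1 (chr11:87853183-87853212, plus strand): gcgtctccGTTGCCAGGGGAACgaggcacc
Tctn1 (chr5:122264411-122264440, minus strand): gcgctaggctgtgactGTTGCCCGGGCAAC
Dnaaf6 (chr1:31222772-31222801, plus strand): acaaagttGTTACCCAGGCAACagagcaac
The capitals begin 121, 24 and 59 bases before the start in Bbs7, Mks1 and Dnaaf6, and 37 bases after it in Tctn1. Bbs7, Mks1 and Tctn1 were above background on all 3 arrays, while Dnaaf6 was below it on all 3. A match describes letters and does not show binding.

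The X-box arm GTTGCCA, searched on both strands, was present in 12 member windows (19.4%), against 1439 of all windows (4.38%). In Mks1 it overlaps the palindrome shown above. The other 11 stretches are printed because most of them sit at the start site. Capitals mark the arm or its reverse complement:
Ift27 (chr15:78174072-78174101, minus strand): ggttgatgatgGTTGCCAggagcctgtttg
Ift88 (chr14:57424080-57424109, plus strand): ggagtcgcgccTGGCAACggctgggcgtcc
Bbs1 (chr19:4906608-4906637, minus strand): tggctgagctgGTTGCCAaggcgacgcctg
Tctn2 (chr5:124598751-124598780, plus strand): attgattggtgGTTGCCAtggctgcaggca
Tctn3 (chr19:40612353-40612382, minus strand): ggctcccagcgGTTGCCAggtaacgggaac
Nphp4 (chr4:152478132-152478161, plus strand): ggtgcatcccgGTTGCCAgctgatgttggg
Dnaaf2 (chr12:69198421-69198450, minus strand): aggcgttactaTGGCAACaaagcacgcgct
Dnaaf4 (chr9:72958780-72958809, plus strand): gccggaagtgaTGGCAACcccgcaatcccc
Dnah10 (chr5:124725084-124725113, plus strand): ctagggtcgccGTTGCCAcggacgcccgcc
Dnah7b (chr1:46066679-46066708, plus strand): acaggagcacaGTTGCCAcccacccttaag
Rfx6 (chr10:51685523-51685552, plus strand): ttggtgacttcTGGCAACttatttgataat
In 10 of the 12 windows (83.3%) the arm was centred within 30 bases of the start, Tctn3 and Dnah7b being the exceptions. Among all windows with the arm 26.5% had it that close, a distance chosen after the positions were seen. Of the 12 genes 9 were above background on all 3 arrays, against 38 of the 58 members with a window, and Dnah10, Dnah7b and Rfx6 were not.

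IFT complex A and its partners were read in every repeat. Ift140, a complex A scaffold, read 6.70, 6.94 and 7.01 in repeats 1, 2 and 3. Ift122, of the same core, read 5.86, 5.74 and 5.67. Ift43, which joins the complex at its edge, read 6.69, 6.51 and 6.64. All 3 exceeded the 99th percentile of the receptor genes on each array, and Ift122 alone stayed below the other silent families.

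Complex B was read throughout as well. Ift20, a small subunit that also sits at the Golgi, read 8.64, 8.76 and 8.39 and had its lowest value in repeat 3. Ift46, a core subunit, read 8.58, 8.62 and 8.74. Ift52, which holds the core together, read 7.75, 7.92 and 8.02. These 3 lay more than 3 log2 units above the receptor cutoff in each repeat. Ift88, whose loss stunts cilia in mice, read 6.87, 6.78 and 6.83. Ift172, the largest peripheral subunit, read 6.38, 6.48 and 6.56. Ift57, also peripheral, read 6.73, 6.89 and 6.98, and Ift80 read 6.86, 6.91 and 7.09. Ift22 and Ift27 are small GTPases. Ift22 read 6.42, 6.51 and 6.36, and Ift27 read 6.24, 6.27 and 6.40. All of them exceeded the cutoff of the other silent families in every repeat. The pair that binds tubulin differed from this: Ift74 read 5.93, 6.48 and 6.34, below that higher cutoff in repeat 1 alone, and Ift81 read 4.91, 5.16 and 5.01, below the 99th percentile of the receptor genes in each repeat. Because these are levels from different probes, the gap between Ift74 and Ift81 gives no ratio of their transcripts.

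Of the BBSome subunits under this name, Bbs9 read 7.35, 7.29 and 7.29, Bbs2 read 6.91, 6.99 and 6.89 and Bbs5 read 6.40, 6.74 and 6.58, and these 3 exceeded every cutoff. Bbs4 read 6.06, 6.06 and 6.19 and passed the highest cutoff in repeat 3 alone. Bbs1, which binds the GTPase that recruits the coat, read 5.81, 5.77 and 5.68. Bbs7, a partner of Bbs2 whose promoter holds an X-box palindrome, read 4.82, 4.80 and 4.94, within 0.5 log2 units of the receptor cutoff on each array. Bbs10 and Bbs12 are chaperonin-like proteins that help to assemble the BBSome. Bbs10 read 5.38, 5.0 and 5.17, above background in each repeat. Bbs12 read 4.51, 4.56 and 4.61 and passed the cutoff in repeat 3 alone, so its call rests on 1 array.

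Transition zone genes were called in all repeats. Tctn2, a tectonic membrane protein, read 6.86, 6.69 and 6.88. Mks1, a B9 domain protein, read 6.32, 6.38 and 6.63. Both exceeded the highest cutoff in each repeat. Tctn3 read 5.67, 5.78 and 6.01 and Nphp4, a nephrocystin, read 5.80, 5.73 and 5.78, between the limits. Tctn1 was the mean of 2 probe sets that differed by 1.31 log2 units in mean. The brighter read 6.19, 6.35 and 6.49 and the dimmer 4.91, 5.30 and 4.90, so both were above the receptor cutoff and the brighter alone passed the highest cutoff on all 3 arrays.

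Dynein assembly factors are cytoplasmic proteins that fold and join dynein arms before they enter the cilium. The 6 under the Dnaaf name gave signal more often than the dynein chains. Assembly factors under other names were not counted here. Dnaaf5 read 7.52, 7.53 and 7.61 and Dnaaf2 read 6.25, 6.22 and 6.24, and these 2 passed every cutoff in each repeat. Dnaaf3 read 6.02, 5.85 and 6.10. Dnaaf1 read 5.84, 5.52 and 5.70. Dnaaf4 read 5.40, 5.06 and 5.32, below the 99th percentile of the receptor genes on all 3 arrays. Dnaaf6 was the exception, at 2.81, 2.45 and 2.66, below background in each repeat. Probe sets annotated to both Dnaaf2 and the ribosomal protein gene Rpl36al read 10.56 to 10.89 and were left out, because they read a gene of another kind as well.

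Axonemal heavy chains are the motors of the arms. Dnah8, an outer arm chain known from sperm tails, read 7.05, 7.08 and 7.36 and exceeded every cutoff in every repeat, by at least 0.91 log2 units over the highest. The other outer arm chains, as gene means, did not reach the receptor cutoff on any array. Dnah5, whose human ortholog is often mutated in primary ciliary dyskinesia, read 4.02, 3.75 and 3.94. Dnah9, its partner in airway cilia, read 4.37, 4.14 and 4.22. Dnah11 read 4.23, 4.20 and 4.27 and Dnah17, a sperm chain, read 4.66, 4.44 and 4.55. The Dnah17 value averages 2 probe sets that disagree: one read 5.31, 5.07 and 5.21, above the cutoff on each array, and the other 4.02, 3.82 and 3.90, below it. Dnah8 lay at least 2.34 log2 units above the receptor cutoff of each array. Values of Dnah8 come from 1 probe set, so no other set of probes checks them.

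Among the remaining heavy chains, mostly of the inner arms, Dnah2 read 5.03, 4.87 and 4.93, above the receptor cutoff in each repeat and below its 99th percentile. Dnah1 read 4.71, 4.61 and 4.61 and missed the cutoff of repeat 1 by 0.011 log2 units, so it counted as above background on 2 arrays. The means of the others were below background on all 3 arrays, although some probe sets of Dnah10 and Dnah3 were above it. Dnah10 read 4.47, 4.43 and 4.43 as the mean of 5 probe sets, of which 3 were above the cutoff in each repeat and 2 below it. Dnah12 read 3.73, 3.61 and 3.52 and Dnah6 read 3.77, 3.68 and 3.56. Dnah14 read 2.84, 2.72 and 2.80. Dnah7a, Dnah7b and Dnah7c are near-identical copies. Dnah7a read 3.30, 2.92 and 3.33, Dnah7b read 3.69, 3.34 and 3.52 and Dnah7c read 3.23, 2.89 and 3.18. Probes may bind transcripts of several copies, so the 3 are uncertain as single genes, and 2 further probe sets annotated to all 3 copies also stayed below the cutoff, at most 4.49. As gene means, 12 of 15 heavy chains were below background in every repeat.

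Dnah3 shows how far probe sets of a single gene can differ. It was read by 33 probe sets, whose means ran from 2.31 to 5.64 with a median of 3.39, and the gene value averages them to 3.52, 3.48 and 3.51. Of these, 4 exceeded the receptor cutoff on all 3 arrays and 29 on none, and none reached the cutoff of the other silent families. Each probe set kept its place across arrays: Pearson's r across the 33 probe sets came to 0.982 for repeats 1 and 2, 0.985 for repeats 1 and 3 and 0.984 for repeats 2 and 3, a description over probe sets of 1 gene that share arrays. The median SD of a Dnah3 probe set over the repeats was 0.087, against a spread of 3.33 log2 units among probe sets. The 5 probe sets of Dnah10 had means of 5.40, 5.02, 4.85, 4.37 and 2.58, so its gene value falls below the cutoff while its median probe set lies above. Dnah17 had 1 of 2 above, at 5.19. Taking the highest probe set of a gene in place of the mean therefore called Dnah3, Dnah10 and Dnah17 above background, and the heavy chain count became 5 of 15. The calls of Dnah3, Dnah10 and Dnah17 therefore depend on how probe sets are combined.

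**Figure D3:**
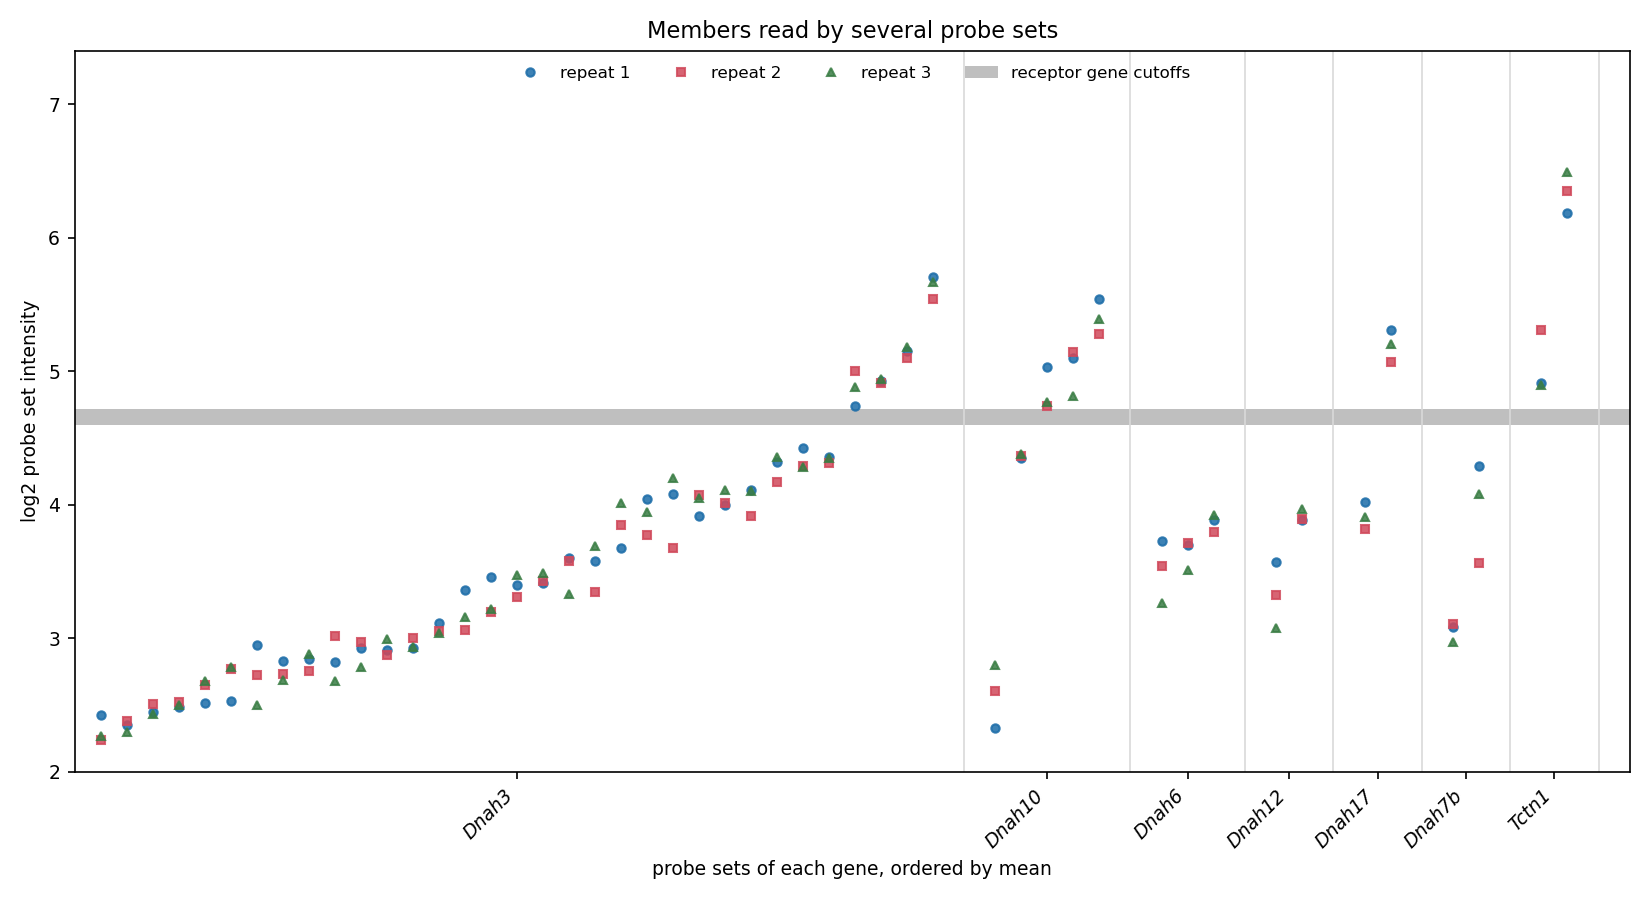
Log2 intensity (vertical axis) of each probe set of the 7 members read by more than 1, with repeats 1, 2 and 3 overlaid and the receptor cutoffs as a grey band. Dnah3 probe sets climb from 2.31 to 5.64 in mean, and the repeats lie close together at most of them.

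Intermediate and light chains complete the arms. Dnaic2, an outer arm intermediate chain, read 5.60, 5.56 and 5.65 and was above the 99th percentile of the receptor genes on each array. Its partner Dnaic1 read 4.39, 4.41 and 4.45, below background throughout. The outer arm light chain Dnal1 read 4.48, 4.58 and 4.53, and Dnali1, an inner arm light intermediate chain, read 3.92, 3.71 and 3.80. Neither reached the cutoff in any repeat.

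Radial spoke genes lay around the cutoff. Rsph1, a spoke head protein of motile cilia, read 5.52, 5.43 and 5.38. Rsph6a, a spoke head gene known from testis, read 5.88, 5.01 and 5.53. Rsph14 read 4.94, 4.78 and 4.62, within 0.5 log2 units of the cutoff. Rsph9 read 4.82, 4.38 and 4.66 and was below background in repeat 2. Rsph4a read 4.49, 4.49 and 4.69 and was above it in repeat 3 alone. Probe sets annotated to both Rsph3a and Rsph3b read 6.05 to 6.13 and could not be assigned to either copy.

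Genes of the cilium outside the member families were read beside these. Of 24 measured IFT and ciliary motor genes with other names 21 were above background on all 3 arrays. Among them were the complex A genes Wdr19 (6.12, 6.23 and 6.18), Wdr35 (8.70, 8.13 and 8.76) and Ttc21b (5.64, 5.42 and 5.56) and the complex B gene Traf3ip1 (7.18, 7.19 and 7.29), given for repeats 1, 2 and 3. The exceptions were Hspb11 (4.15, 4.32 and 4.14), Ttc30a1 (3.71, 3.92 and 3.61) and Ttc30b (3.96, 4.01 and 4.23). BBSome partners (8 of 9), transition zone genes with other names (15 of 18), ciliary membrane and GTPase genes (13 of 13), basal body genes (18 of 18) and hedgehog components that pass through cilia (12 of 14) were mostly above background too. Above the cutoff of the other silent families, which 43.8% of all genes passed, were 14 of the 24 IFT and motor genes, 4 of 9 BBSome partners, 7 of 18 transition zone genes, 9 of 13 membrane and GTPase genes, 13 of 18 basal body genes and 8 of 14 hedgehog components. BBSome partners and transition zone genes thus lay near the share of all genes there. The BBSome subunit Ttc8 read 5.33, 5.19 and 5.39, and Wdpcp, below background throughout, read 4.57, 4.38 and 4.43. Among transition zone genes Rpgrip1l read 4.71, 4.76 and 4.81, just below the cutoff in repeat 1. The hedgehog receptor Ptch1 read 7.87, 7.47 and 7.97, its partner Smo read 7.47, 7.24 and 7.46, the inhibitor Sufu read 6.87, 6.74 and 6.78 and the effector Gli1 read 6.77, 6.84 and 6.66. The cytoplasmic dynein of the cell body and its activator dynactin gave signal in 13 of 14 genes, with the heavy chain Dync1h1 at 9.54, 9.52 and 9.70. By contrast 11 of 37 genes of the motile axoneme outside the member families were above background on all 3 arrays, and 3 of 37 above the higher cutoff. Ccdc39 and Ccdc40 form a ruler of axonemal repeats. Ccdc39 read 3.92, 3.85 and 3.99, below background throughout, and Ccdc40 read 5.20, 5.22 and 5.48, above it throughout. Ccdc114, which docks outer arms, read 5.45, 5.55 and 5.59, and Ccdc65 read 4.68, 4.71 and 4.68, below the cutoff in repeat 1 alone. These lists were written with earlier results of the series known, and the background share is the 71.6% given above.

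Markers of cell types that hold motile axonemes were read beside these values. Of 15 genes of multiciliated cells 8 were above the receptor cutoff on all 3 arrays and 0 above that of the other silent families. Among all genes outside the receptor families the shares above these 2 cutoffs were 71.6% and 43.8%. The multiciliogenesis regulator Mcidas read 5.50, 5.06 and 5.05, Ccno read 5.64, 5.51 and 5.71 and Trp73 read 6.05, 5.89 and 5.92. Gmnc, which acts above Mcidas, was below background on every array at 3.09, 3.52 and 3.32, as were 6 others. Of 12 sperm genes 3 were above the receptor cutoff and 0 above the higher limit, with the tail fibre gene Odf1 at 4.33, 4.30 and 4.33 and the protamine gene Prm1 at 5.38, 5.33 and 5.21. ES cell markers were all read, 11 of 11 on both cutoffs, with Pou5f1 at 11.63, 11.84 and 11.83. Fibroblast markers, which feeder cells would carry, were above background in 16 of 19 genes and above the higher limit in 14 of 19. Col1a1 read 8.42, 9.11 and 8.59 and Col1a2 read 8.02, 8.52 and 8.01. Col3a1 read 7.17, 7.46 and 6.97 and Col5a1 read 6.67, 6.86 and 6.59. The summed intensity of the fibroblast markers was 5875, 7373 and 6033 in repeats 1, 2 and 3. Much of that sum came from Fn1 (11.08, 11.18 and 11.09) and Vim (10.67, 10.95 and 10.76), and the part of feeder cells in it was not tested. Lum and Fap were below background on all 3 arrays. In such bulk RNA, few cells with much of a transcript and many cells with little of it cannot be told apart, and the part of other cells in the members' signal was not tested.

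CpG content of promoters ran along the same lines as the calls. The observed CpG count over that expected from base content had a median of 0.80 in 11 IFT windows and 0.45 in 14 heavy chain windows, against 0.38 over all 32851 windows. It exceeded 0.6 in 10 of 11 IFT windows, in 2 of 14 heavy chain windows and in 35.8% of all windows. All windows cover 27025 genes, many of which the array values do not hold, so this share is no like comparison. Of the 13894 measured genes outside the receptor families with a window, 8282 had their highest window above 0.6, and 36 of 58 members did. Of members with a window above 0.6, 31 of 36 (86.1%) were above background on all 3 arrays, and of the others 7 of 22 (31.8%) were. Over genes outside the receptor families the shares were 90.1% of 8282 and 47.4% of 5612, so the members' split by CpG content resembles that of all genes. Exceptions ran both ways. Dnaic1 had 0.80 and Bbs12 0.88 without a call on all 3 arrays, while Dnah2 had 0.19 and was called. Dnah8 stood at 0.602, just past the limit of 0.6.

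The contrast can be read in the 250 bases before the start of an IFT gene and of 2 heavy chain genes, given 5′ to 3′ along the gene from GRCm38.p6 with each CpG in capitals:
Ift46 (chr9:44772759-44773008, plus strand): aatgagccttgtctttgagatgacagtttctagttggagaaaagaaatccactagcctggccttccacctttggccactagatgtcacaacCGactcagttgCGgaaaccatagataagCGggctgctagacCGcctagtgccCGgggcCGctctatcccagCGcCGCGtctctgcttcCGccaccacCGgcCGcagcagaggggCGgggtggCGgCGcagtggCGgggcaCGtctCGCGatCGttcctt
Dnah8 (chr17:30626686-30626935, plus strand): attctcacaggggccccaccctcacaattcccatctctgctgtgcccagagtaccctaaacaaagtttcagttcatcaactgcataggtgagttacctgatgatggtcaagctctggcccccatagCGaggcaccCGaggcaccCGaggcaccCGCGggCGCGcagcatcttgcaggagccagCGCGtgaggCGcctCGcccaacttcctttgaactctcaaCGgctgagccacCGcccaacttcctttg
Dnah5 (chr15:28203516-28203765, plus strand): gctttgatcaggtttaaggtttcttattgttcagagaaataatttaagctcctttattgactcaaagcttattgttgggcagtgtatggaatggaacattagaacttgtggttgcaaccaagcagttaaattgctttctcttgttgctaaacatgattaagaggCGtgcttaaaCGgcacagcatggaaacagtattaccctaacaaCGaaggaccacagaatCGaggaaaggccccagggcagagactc
Ift46 holds 20 CpG in this stretch, Dnah8 13 and Dnah5 4. In Dnah8 they lie in the part nearer to the start. Ift46 and Dnah8 were above every cutoff in all repeats and Dnah5 was below background in all of them.

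**Figure D4:**
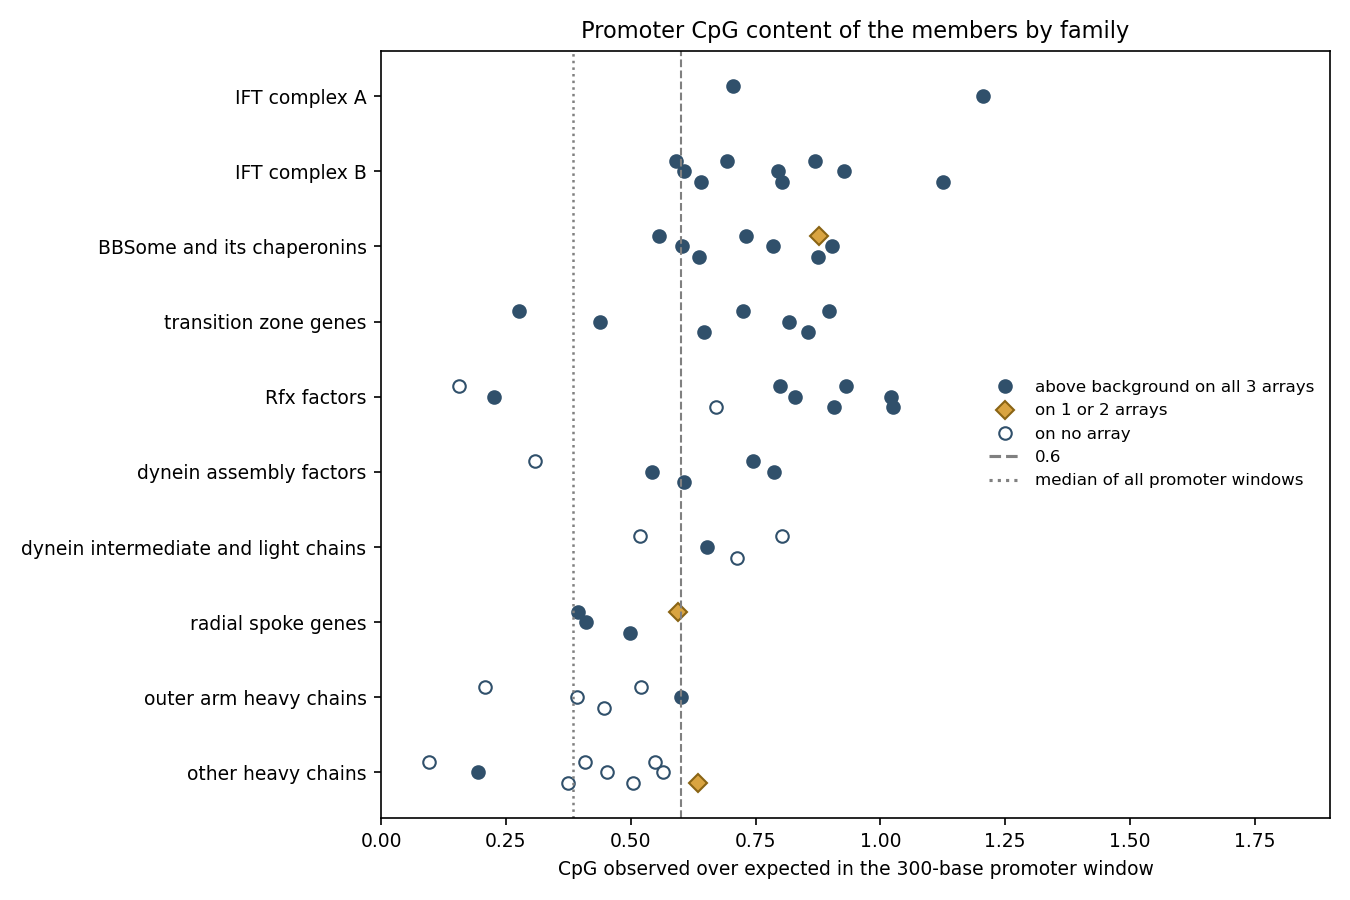
CpG observed over expected (horizontal axis) in the promoter windows of the members, by family. Filled circles are members above background on all 3 arrays, diamonds on 1 or 2 arrays and open circles on no array. Heavy chain windows lie mostly left of 0.6 and IFT windows mostly right of it.

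The repeats gave closely similar values for the members. The median member of the 43 called in every repeat had an SD of 0.11 log2 units, against 0.10 over all such genes outside the receptor families. Dnaaf2 had the smallest SD, 0.013, and Rsph6a the largest, 0.44. In 2 of the 43 the repeats spanned more than 0.5 log2 units, Rsph6a and Ift74, where 4.46% of all genes above background did. Rsph6a read 5.88, 5.01 and 5.53 and spanned 0.87 log2 units, lowest in repeat 2. Ift74 read 5.93, 6.48 and 6.34 and spanned 0.55, lowest in repeat 1. A variance test built on a limma fit set each gene's variance over the repeats against that fitted for genes of like level. It called 0 of the 47 members tested after Benjamini-Hochberg adjustment over 13610 genes, where 0.162% of genes were called. Without adjustment 2 members, Rsph6a and Ift74, passed 0.05 in this variance test, where 5.75% of genes did. The adjusted p of the variance test was 0.37 for Rsph6a and 0.81 for Ift74. The test has limited power with 3 arrays, and in simulated data it recovered 34% of changes of 1 log2 unit and none of 0.5 over 13610 genes.

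**Figure D5:**
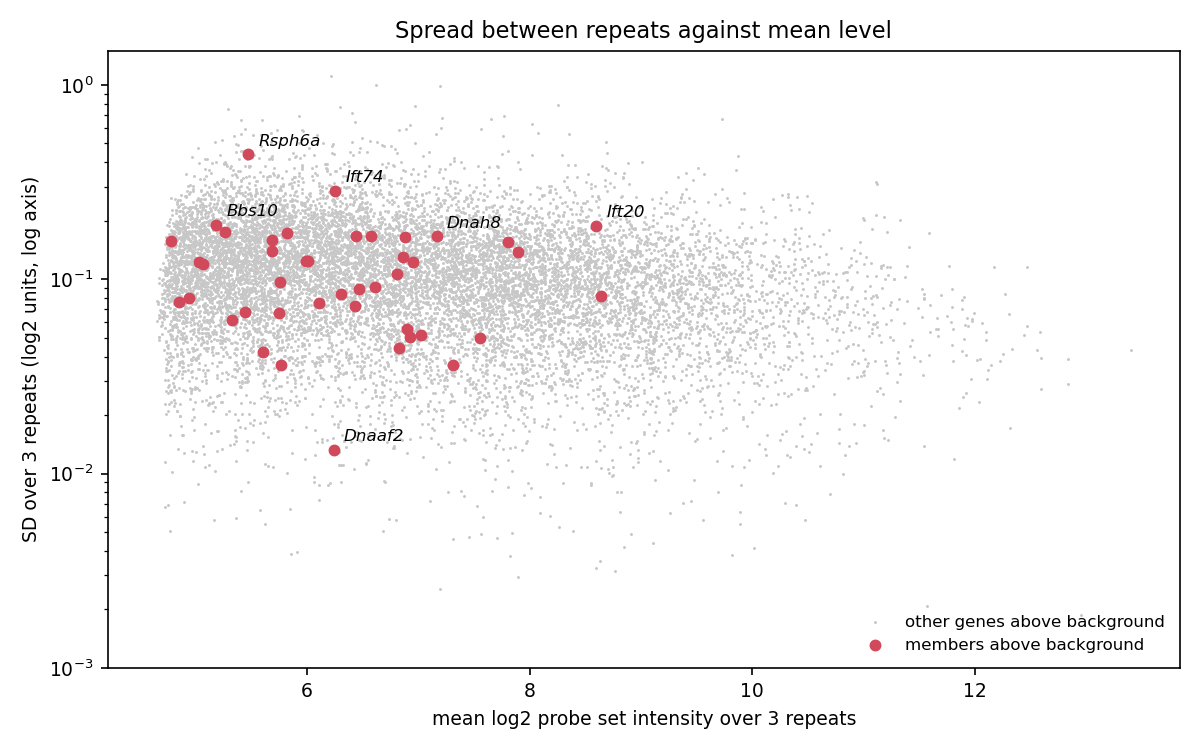
SD over the 3 repeats (vertical log axis) against mean log2 intensity for the 43 members above background (red) and the other genes above background outside the receptor families (grey). Rsph6a has the highest SD among the members, 0.44, and Dnaaf2 the lowest, 0.013.

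The repeats differed in which was highest or lowest over the members. Repeat 2 was highest in 8 of the 43 above background (18.6%), where it was highest in 37.0% of genes outside the receptor families, and repeat 3 was lowest in 7 (16.3%), where it was lowest in 32.0%. The median difference of repeat 2 from the mean of the other repeats was -0.041 log2 units over the 43 members above background and 0.0066 over all such genes outside the receptor families. The same difference was -0.017 for repeat 1 and 0.056 for repeat 3 over the members, against -0.011 and 0.0019 over all such genes. By family the IFT genes were lowest in repeat 1 in 9 of 14 cases, with a median difference of -0.12, against 33.4% of all genes lowest in repeat 1. Repeat 3 was highest in 7 of the 14, with a median difference of 0.13, against 33.1% of all genes highest in repeat 3. Assembly factors were lowest in repeat 2 in 4 of 5 cases, with a median difference of -0.21, against 34.7% of all genes lowest in repeat 2. The median SD of an IFT gene over the repeats was 0.11. No family was set for this comparison in advance, genes of a family share the arrays, and these shifts were not tested. Fibroblast markers moved otherwise, with a median difference of 0.35 in repeat 2 over the 16 above background. Repeat 2, where they were highest, was the lowest repeat in 17 of the 43 members (39.5%) and the highest in 8. Among genes outside the receptor families 34.7% were lowest in repeat 2. The part of fibroblast cells in the members' values was not tested.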

How the data were processed

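Per the labels, biotin-labelled total RNA of 3 R1 samples was hybridised to Mouse Gene 1.0 ST arrays, and the submitters' processing notes name GCOS 1.4. The deposited values are linear probe set intensities. How they were background-corrected, normalized and summarised is not stated in the labels, and they were kept as deposited. They were turned to log2, and probe sets with a single symbol were averaged per gene (20764 of 26730 probe sets, 1419 had several symbols and 4547 none). Median intensity per array was 46.7 to 47.8, and with 3 arrays their number limits the precision. The design text calls the samples biological repeats.

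Between-repeat variance was tested from a fit with limma 3.58.1 in R 4.3.3: an intercept fit over the 13610 genes that passed background in 1 or more repeats, variance over a trended robust prior against F with 2 and 9.89 degrees of freedom, Benjamini-Hochberg adjusted at 0.05. This F test is not part of limma. The common prior degrees of freedom served for every gene, in place of the lower ones that robust fitting gives outlying genes. Tested on simulated data with 200 changed genes, the variance test called 118 genes, 3 of them falsely. The simulated variances were drawn from the prior fitted to these data, with independent normal noise. The false count therefore does not show the error rate of the test on real arrays. Promoter letters were searched in RefSeq windows with Python 3.11.15. The members and gene lists were chosen with earlier results of these data known. Named members were, per family, those on the rarer side of the call or the first in symbol order, those called on 1 or 2 arrays, those whose probe sets disagreed and those of widest range, and the rest were added so that every member has its values. From each further list values are given for some of its first 4 measured genes and of its exceptions where these were 5 or fewer. Fn1 and Vim were added from the fibroblast list for their share of its summed intensity. Alternatives were other background cutoffs, arrays required, normalizations, probe set choice, prior settings, the Rfx genes left out and each replicate left out.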

Additional observations from a re-analysis of the deposited data

How the results depend on the processing

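The count of members above background, 43, became 22 with the other silent families as background, because that cutoff is higher. It was 33 at the 99th percentile of the receptor genes, 45 where 2 of 3 arrays sufficed (73.8% of genes outside the receptor families), 43 after quantile normalization or centring on the median, 46 with the highest probe set of a gene and 37 without the Rfx genes. Leaving out each replicate in turn gave 43 to 44. Family counts, added after seeing the data, were lower with the other silent families as background: IFT 11 of 14, BBS 3 of 8 (from 7), transition zone 2 of 5 (from 5), assembly factors 2 of 6 (from 5), Rfx 3 of 8 (from 6) and radial spokes 0 of 5 (from 3, and also 0 at the 99th percentile). Heavy chains were 1 of 15 under both higher cutoffs and 5 with the highest probe set, against 2. The variance test called 0 members under every setting run, while its calls over all genes, 22, became 6 and 5 under the higher cutoffs, 13 after quantile normalization, 42 after centring, 10 without robust fitting, 1 without a trend, and 0 to 34 with a replicate left out (0 without replicate 1, 34 without replicate 2, 12 without replicate 3). The members' median SD was 0.082 to 0.098 with a replicate left out. The median difference of repeat 2 was -0.083 without replicate 1 and 0.0018 without replicate 3, so its sign rests on repeat 3. It has no value without replicate 2. No paired analysis was possible because the samples form 1 group. Genes near the cutoff, such as Bbs7, Rsph14 and Dnah1, are limited by signal over background.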
